A study of Danio rerio with 4 samples.

Results

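The low-coordinate flank of the zebrafish (Danio rerio) major alpha/beta-globin domain comprised all contacts measured between 5C primers whose midpoints both lay below 55.943 Mb on chromosome 3 (genome build danRer7). It held 61 of 164 primers, 29 forward and 32 reverse, and so 928 of 6699 primer pairs (13.9%). These primers spanned 54.3 kb, from 55888613 to 55942960, out of the 139 kb covered, with a median spacing of 600.5 bp. The rule uses primer positions alone. The study compared blood cells of adult fish (2 libraries) with blood cells of larvae at 18 days post fertilisation (2 libraries). Both groups are named in the labels by stage only. The sources used here give no strain, sex or number of fish pooled. Expression was not measured in these libraries, so the erythroid identity given in the study's design could not be checked against marker genes.

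In 5C, carbon-copy chromosome conformation capture, chromatin is fixed, cut and religated, and pools of forward and reverse primers are ligated to each other wherever they lie on the 2 sides of a junction. A read count for a forward-reverse pair therefore reflects joins of these 2 restriction ends, and forward-forward or reverse-reverse combinations give no product. Counts were not corrected here for differences between primers in how well they work. Rankings of different pairs or primers, and slopes with distance, therefore compare uncorrected counts and are not direct measures of contact frequency. Red blood cells of fish keep their nucleus, so circulating cells still hold chromatin. In the zebrafish domain, genes used before and after the switch from larval to adult haemoglobin lie in neighbouring groups, and in mammals the main enhancers of the alpha-globin genes lie in introns of a flanking gene, Nprl3. In the RefSeq gene order of a later assembly (GRCz12tu), mpg (a DNA repair glycosylase) and nprl3 precede the adult genes hbaa1, hbba1 and hbaa2, the embryonic genes such as hbbe1.1 and hbae3 follow, and kank2 and dock6 lie beyond them. Which of these genes lie among the flank primers was not determined here, since that table is of another build, and primers are named by F or R and their number.

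The library totals were 65450 and 38494 counts in adult replicates 1 and 2, and 20801 and 6539 counts in larvae replicates 1 and 2. Both adult libraries were deeper than both larvae libraries, so depth and stage cannot be told apart by design. A count of 0 allows up to 3 counts, or 45.8, 77.9, 144 and 459 CPM (counts per 1000000 counts of the library) in that order. The 2 libraries of a stage were not copies of each other: over flank pairs the chi-square of their counts divided by its degrees of freedom was 1.97 for the adults and 3.64 for the larvae. The labels describe biological replicates, but the sources used here do not say whether each library had its own 3C template. P-values therefore measure only the spread between these libraries.

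Some values in the matrices were duplicated. Where a forward and a reverse primer lay less than 200 bp apart at each of 2 loci, the pair F-R and its mirror image often held the same counts. F76-R83 and F84-R77 both held 105, 32, 2 and 2 counts in adult 1, adult 2, larvae 1 and larvae 2, and F54-R136 and F135-R52 both held 16, 15, 27 and 5. Among mirror images with at least 20 counts, 6 of 15 in the flank and 49 of 81 in the whole region were identical in all 4 libraries. Where at least 1 of the gaps was 200 to 900 bp, 0 of 240 in the flank and 0 of 1915 in the whole region were identical. The sources used here do not give how such reads were assigned. The flank had 80 pairs with such a mirror image, and counting each once removed 41 pairs and between 3.86% and 6.56% of its counts.

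The first comparison asked how much of the signal lay within the flank at each stage. The flank's part of all counts overlapped between adults and larvae. Adult replicate 1 held 6753 counts there, which is 10.3% of the library with a 95% interval (exact Clopper-Pearson) of 10.1 to 10.6%, and adult replicate 2 held 3875 counts, or 10.1% (9.77 to 10.4%). Larvae replicate 1 held 2411 counts, or 11.6% (11.2 to 12.03%), and larvae replicate 2 held 623, or 9.53% (8.83 to 10.3%). Such intervals and the limits above reflect counting error only, because PCR copies of 1 molecule cannot be recognised without molecular identifiers. The adult values lay between the larvae values, with means of 10.2% ± 0.178 and 10.6% ± 1.46 (SD, n = 2 each). Per primer pair the flank had 111 and 108.5 CPM in the adult libraries and 125 and 103 CPM in the larvae libraries. In contrast, pairs within the next stretch, 55.943 to 55.962 Mb, held 29.8% ± 0.853 of adult and 14.3% ± 0.340 of larvae counts (SD, n = 2 each). The flank share does depend on 3 very abundant pairs that lie outside it and took 15.2% and 18.5% of the adult and 24.8% and 34.5% of the larvae libraries. With those 3 pairs left out, the flank took 12.2% and 12.4% in the adult libraries and 15.4% and 14.5% in the larvae libraries, higher in larvae without overlap. An exact permutation test of 2 against 2 libraries cannot give a p below 0.333, so shares and slopes carry no test.

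Flank primers kept more of their contacts inside the flank in larvae than in adults. Of all counts that involved a flank primer, 28.7% and 29.4% joined 2 flank primers in the adult libraries and 35.3% and 36.6% did so in the larvae libraries. The stages did not overlap, with means of 29.0% ± 0.491 and 36.0% ± 0.893 (SD, n = 2 each), and this share is not touched by the 3 abundant pairs. The partners that adults had in excess lay just above the limit: 43.6% and 42.2% of flank-primer counts in adults reached primers between 55.943 and 55.962 Mb, against 33.2% and 26.4% in larvae. Contacts with the far end, from 55.992 Mb on, were instead a larger part in larvae (15.2% and 16.2%) than in adults (9.11% and 9.59%). The part that reached 55.962 to 55.992 Mb overlapped between stages, at 18.7% and 18.9% in adults and 16.3% and 20.8% in larvae. Over pairs at least 5 kb apart the kept part was smaller and still higher in larvae, at 22.0% and 23.5% against 18.95% and 19.5%.

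**Figure D1:**
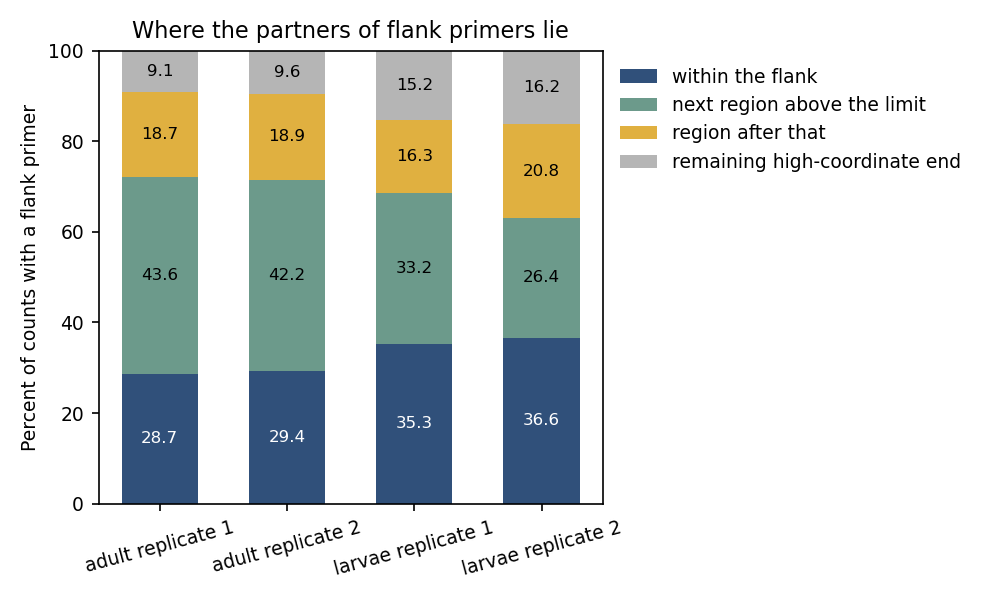
Stacked bars give, for each of the 4 libraries, the percent of counts with at least 1 flank primer whose partner lay within the flank, in the next region (55.943 to 55.962 Mb), in the region after that (to 55.992 Mb) or at the remaining high-coordinate end. The lowest segment is 28.7% and 29.4% in the adult libraries and 35.3% and 36.6% in the larvae libraries.

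The difference in kept contacts was uneven along the flank. In the values per bin a read within the flank counts for each of its flank ends. They are therefore another measure than the shares above and run higher. The outermost bins kept most. In the 10 kb bin that starts at 55883000, primers kept 47.9% ± 4.39 of their counts inside the flank in adults, against 70.1% ± 2.52 in larvae (SD, n = 2 each). The values for the bin at 55893000 were 56.6% ± 1.38 and 72.2% ± 6.03, and those for the bin at 55913000 were 47.2% ± 0.249 and 63.7% ± 4.90. In the bin at 55933000, which borders the limit, the order turned: 42.9% ± 0.227 in adults and 42.0% ± 0.459 in larvae. The kept part thus differed by more than 15 percentage points in 3 of the 6 bins, and by under 1 point next to the limit. In the bins at 55903000 and 55923000 it was 34.6% and 40.3% in adults, against 36.6% and 48.5% in larvae.

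Most flank pairs gave no read, and more pairs had reads in 1 stage than in both. Of the 928 pairs, 541 had no read in any library, 223 had reads in adults only, 51 in larvae only and 113 in both stages. Pairs above 0 numbered 333 and 305 in the adult and 154 and 138 in the larvae libraries. These were 35.9% and 32.9% of flank pairs in adults, against 16.6% and 14.9% in larvae. Within 55.943 to 55.962 Mb the parts were 79.0% and 78.7% against 52.9% and 50.7%. They were 44.9% and 44.0% against 41.2% and 34.7% within 55.962 to 55.992 Mb. From 55.992 Mb on they were 31.8% and 31.1% against 21.8% and 19.3%. The lower larvae values were thus not particular to the flank. Pairs with reads in 1 stage only were not counted outside the flank. Within a stage the same pairs recurred: 302 of the 305 pairs of adult replicate 2 (99.0%) were also above 0 in adult replicate 1, and 128 of the 138 of larvae replicate 2 (92.8%) in larvae replicate 1. Across stages, 106 of the 154 pairs of larvae replicate 1 (68.8%) were above 0 in the deeper adult replicate 1, and these 106 made up 31.8% of its 333 pairs. The pairs seen only in adults carried 44.6% and 43.4% of the flank counts of the adult libraries, and those seen only in larvae carried 22.3% and 20.6% of the flank counts of the larvae libraries. With every library thinned to 6539 counts, 204 and 201 flank pairs stayed above 0 in adults and 118 and 138 in larvae. At that equal depth adult replicate 1 shared 147 pairs with adult replicate 2 and 64 with larvae replicate 1, while the larvae libraries shared 102.

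Counts per pair within the flank were highest at short distance in both stages, and more so in larvae. Whether joins of primers this close reflect contacts in chromatin was not tested. For the 46 pairs closer than 1 kb the mean was 426.5 and 440.5 CPM per pair in the adult and 693 and 552 in the larvae libraries. For the 20 pairs 1 to 2 kb apart it was 194 ± 8.02 CPM in adults against 272 ± 60.45 in larvae (SD, n = 2 each). Both classes were higher in larvae without overlap. The larvae libraries also stayed above without F117-R116, the leading pair under 1 kb (475 and 455 against 343 and 352 CPM). From 2 to 10 kb the stages overlapped, with 244.5 and 224 CPM in adults and 239 and 207 in larvae at 2 to 5 kb, and 108 in both adult libraries against 118 and 87.7 at 5 to 10 kb.

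At middle distances the order was the opposite in CPM of the library totals. Those totals include the 3 abundant pairs outside the flank. These took 15.2% and 18.5% of the adult and 24.8% and 34.5% of the larvae libraries. Leaving them out would raise the larvae values more than the adult ones. By the values given here, the 10 to 20 kb class would then overlap between stages, so its order holds for library totals only. The other distance classes were not recomputed that way. The 215 pairs 10 to 20 kb apart had 78.0 and 63.9 CPM in adults and 61.9 and 39.1 in larvae, and the 172 pairs 20 to 30 kb apart had 51.6 and 46.5 against 25.7 and 30.2. The second of these overlapped without F152-R116, its leading adult pair, at 26.5 and 22.0 CPM in adults and 23.3 and 28.6 in larvae. With F159-R116, its leading larvae pair, left out instead, it stayed higher in adults (51.9 and 46.8 against 14.9 and 23.25 CPM). The longest contacts, 40 to 60 kb, were again higher in larvae, with 130 and 76.5 CPM against 50.7 and 60.5. Without F141-R55 this class overlapped too (100.5 and 51.0 against 51.2 and 61.1). Leaving out F152-R55, its leading adult pair, instead kept it higher in larvae (100.5 and 60.2 against 33.95 and 44.9).

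**Figure D2:**
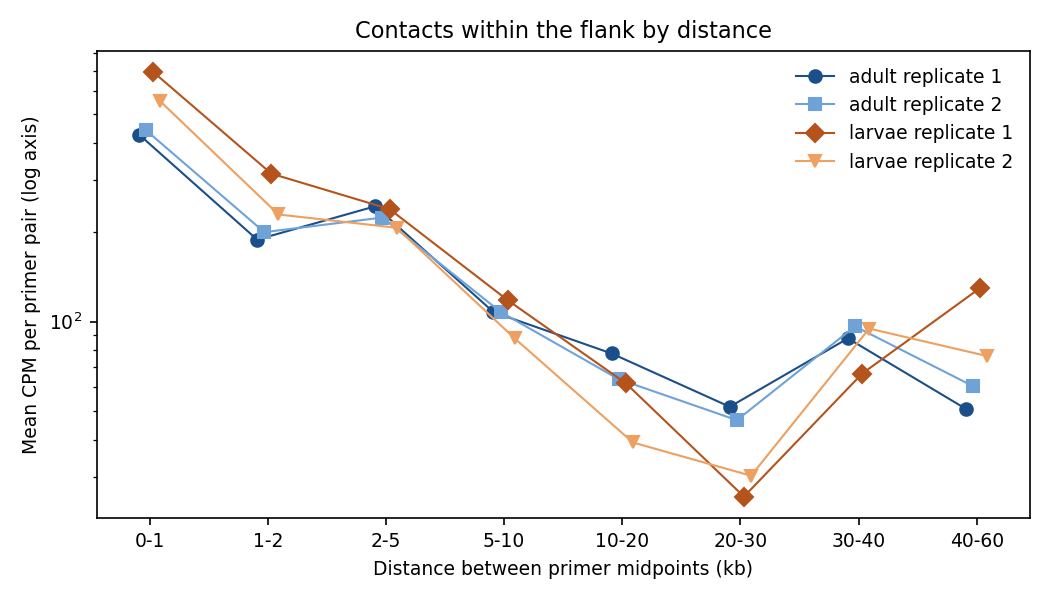
Points give the mean CPM per primer pair (log axis) for flank pairs in 8 classes of distance between primer midpoints (kb), pairs at 0 included, with 1 line per library. In CPM of the library totals, both larvae libraries lie above both adult libraries under 2 kb and past 40 kb, and below them from 10 to 30 kb.

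The decay of contacts with distance was shallow past 5 kb. A line fitted to log2 count against log2 distance, over pairs above 0 from 5 kb on, had a slope of -0.13 and -0.06 in the adult libraries (231 and 210 pairs) and 0.16 and 0.22 in the larvae libraries (93 and 79 pairs). The means were -0.09 ± 0.052 and 0.19 ± 0.044 (SD, n = 2 each). In larvae the pairs with reads were thus not fewer in counts at longer distance. The negative sign of the adult mean did not hold in all settings. At equal depth the mean slopes over pairs above 0 were 0.03 in adults and 0.23 in larvae. With the limit at 55.938 Mb they were 0.06 and 0.16. At full depth and the limit of 55.943 Mb, slopes were also fitted to means per distance class, with pairs at 0 included. They were -0.32 and -0.21 in adults and -0.10 and 0.03 in larvae. Within 55.943 to 55.962 Mb the slope over pairs above 0 was -0.98 ± 0.12 in adults and -0.94 ± 0.027 in larvae. It was -0.19 ± 0.14 and -0.48 ± 0.29 within 55.962 to 55.992 Mb, and -0.47 ± 0.15 and -0.06 ± 0.30 from 55.992 Mb on. With pairs at 0 included, all class-mean slopes in these stretches were steeper than in the flank. Within 55.943 to 55.962 Mb they were -1.01 and -1.29 in adults and -1.795 and -2.21 in larvae. Within 55.962 to 55.992 Mb they were -2.35 and -1.83, and -2.355 and -1.47. From 55.992 Mb on they were -0.93 and -0.76, and -0.67 and -1.36. These shorter stretches gave 2 to 4 distance classes against 5 in the flank, so the slopes cover unlike distances.

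The map of 10 kb bins asked which stretches of the flank met each other more often at one stage. Each bin is named here by its first base. In adults the bin at 55923000 had more contacts with the bins at 55893000 and 55913000, and the bin at 55933000 with those at 55903000 and 55913000. In larvae the outermost bin, at 55883000, had more contacts with the bin at 55933000. The bins at 55893000 and 55933000 did not pass (log2 change -0.17), nor did those at 55903000 and 55923000 (adjusted p = 0.147, edgeR). All 21 bin pairs of the flank were tested with the edgeR quasi-likelihood test and Benjamini-Hochberg adjustment over 115 bin pairs of the whole region. Of the 21, 4 were higher in adults, where 20.9% of all tested bin pairs were, and 1 was higher in larvae (4.76%, where 17.4% of all were). The other 16 did not pass, and the median log2 change, adult minus larvae, was 0.11 in the flank and 0.08 over all bin pairs.

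The bins at 55903000 and 55933000 differed most. Their 69 pairs held 163 and 89 counts in the adult libraries and 6 and 2 in the larvae libraries, or 36.1 and 33.5 against 4.18 and 4.43 CPM per pair. The log2 change was 3.16 ± 0.43 (SE, n = 2 per stage, adjusted p = 0.00959, edgeR). No single pair carried this difference, since the leading one held 16.7% of the adult counts.

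The bins at 55913000 and 55923000 held 334 and 152 counts in adults and 25 and 5 in larvae (log2 change 2.24 ± 0.32, adjusted p = 0.0112, edgeR). The bins at 55893000 and 55923000 held 306 and 236 counts against 32 and 10 (1.95 ± 0.29, adjusted p = 0.0112, edgeR). Both also stayed apart without their leading pair: 98.6 and 80.4 against 28.6 and 18.2 CPM per pair for the first, and 52.5 and 67.9 against 19.7 and 19.6 for the second.

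In the other bin pairs that passed, the difference did not hold without the leading pair of the higher stage. The bins at 55913000 and 55933000 held 516 and 293 counts in adults and 102 and 30 in larvae (log2 change 0.83 ± 0.17, adjusted p = 0.0220, edgeR, and 0.0686 with DESeq2). The pair F152-R116 gave 55.4% of those adult counts, and without it the bin pair was higher in larvae (106.5 and 102 against 84.0 and 80.4 CPM per pair). The bins at 55883000 and 55933000, which span almost the whole flank, were the ones higher in larvae. They held 179 and 112 counts in adults and 193 and 35 in larvae (log2 change -1.29 ± 0.27, adjusted p = 0.0242, edgeR). Without F141-R55 their values overlapped, at 73.9 and 78.6 CPM per pair in adults and 169 and 74.4 in larvae. The leading pair of the lower stage was not left out in either case. F159-R116 gave 35.6% of the larvae counts of the first bin pair, and F152-R55 gave 59.8% of the adult counts of the second.

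**Figure D3:**
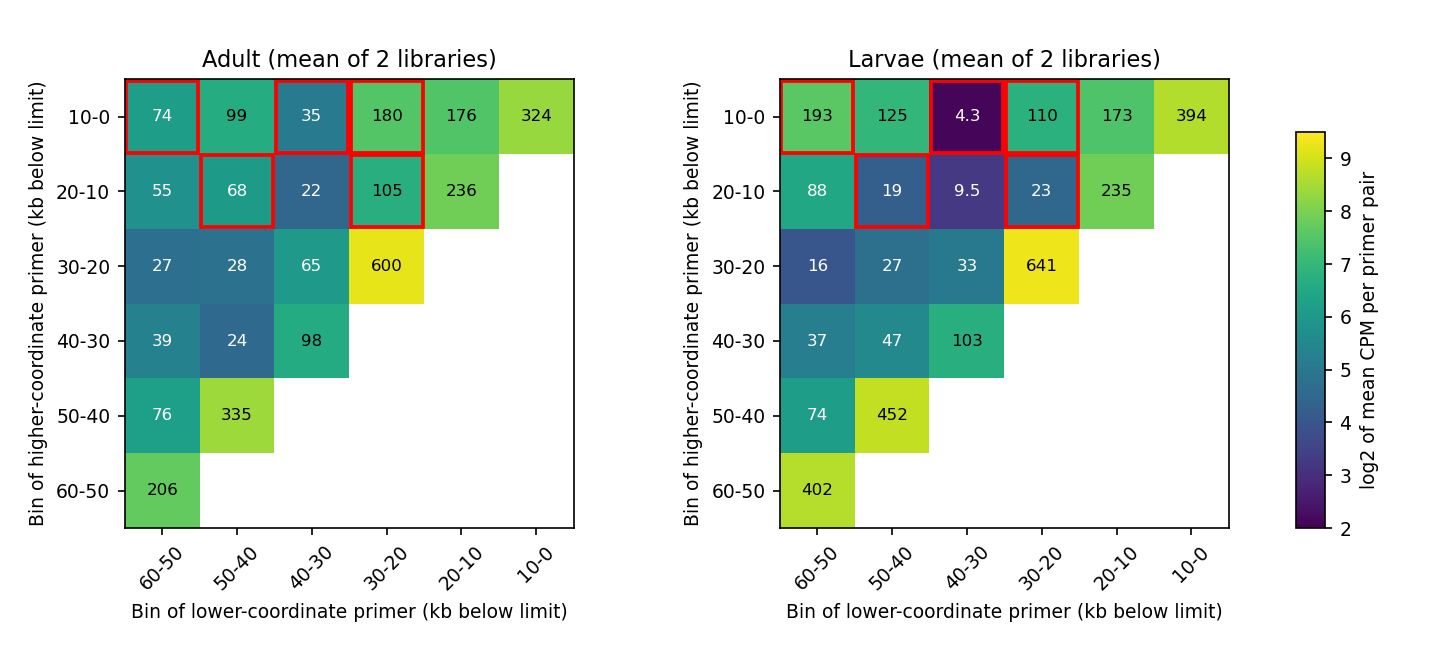
Each cell gives the mean CPM per primer pair between or within 10 kb bins of the flank, for adults (left) and larvae (right), as a number and as colour on a log2 scale, with both axes in kb below the limit of the flank. Red frames mark the 5 bin pairs with an adjusted p under 0.05 (edgeR), of which the cell 60-50 by 10-0 is higher in larvae and the other 4 are higher in adults.

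Contacts within a single bin did not pass in any of the 6 bins, with log2 changes of -0.83 to 0.11. The bin at 55883000 held 185 and 227 CPM per pair within itself in adults and 403 and 401 in larvae, without overlap, at an adjusted p of 0.0869 (edgeR). Without adult replicate 2 none of the flank bin pairs passed with edgeR, the test run there (4 in the adult and 1 in the larvae direction had an unadjusted p under 0.05), and without adult replicate 1 the adult-higher ones numbered 3 and the larvae-higher ones 0 (1 at an unadjusted p under 0.05). Without larvae replicate 1 the bins at 55883000 and 55933000 did not pass either (log2 change -0.85, adjusted p = 0.0742, edgeR).

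The part of flank counts that crossed a given point also varied along the flank. Pairs across 55923000 made up 33.1% and 34.3% of flank counts in adults and 26.0% and 28.7% in larvae. Pairs across 55893000 made up 8.83% and 9.88% in adults and 15.3% and 12.7% in larvae. Across 55933000 the libraries lay between 32.3% and 32.7%, without a difference between stages.

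Single pairs were compared next. Of the 928 flank pairs, 95 passed the filter on low counts and were tested, together with the rest of the 679 pairs of the region. Of these, 36 were higher in adults (37.9%, where 46.1% of all tested pairs were), 25 were higher in larvae (26.3%, where 24.0% of all were) and 34 did not pass (edgeR quasi-likelihood, Benjamini-Hochberg). The values of the stages did not overlap in 76 of the 95 (80.0%, against 82.8% of all tested pairs). The median log2 change was 0.61 in the flank and 1.08 over all tested pairs. The sign of the flank median depended on the libraries and their depth. It was 0.44 with library totals, 3.58 without a filter and -0.77 at equal depth, where 12 flank pairs were tested. It was -0.23 and -0.14 without adult replicate 1 or 2, and 6.13 and 3.67 without larvae replicate 1 or 2. Of 24 flank pairs under 1 kb, 5 were higher in adults and 9 in larvae (20.8% and 37.5%, with 28.9% and 34.2% of all 76 tested pairs of that distance). Of 23 at 1 to 5 kb, 8 were higher in adults and 3 in larvae (34.8% and 13%, with 37% and 17.3% of all 127). Of 27 at 5 to 20 kb, 13 were higher in adults and 7 in larvae (48.1% and 25.9%, with 47.4% and 21.5% of all 209). Of 21 at 20 kb and over, 10 and 6 were (47.6% and 28.6%, with 54.3% and 26.2% of all 267). The differences from these backgrounds were not tested.

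The flank pair with the highest mean CPM in both stages was F117-R116, whose primers (55917147 to 55917176 and 55917025 to 55917054) lie 0.122 kb apart. It had 274 and 170 counts in adults and 218 and 32 in larvae, and 4301 ± 163 and 7687 ± 3950 CPM (SD, n = 2 each). Both larvae values lay above both adult values, but the pair did not pass (log2 change -0.70, adjusted p = 0.109, edgeR). Scaled by library totals it did pass, higher in larvae (-0.87, adjusted p = 0.0427, edgeR), as it did without larvae replicate 2 (-1.16, 0.00734), and it was at -0.01 without larvae replicate 1. In adult replicate 1 F152-R116 had more counts, and in larvae replicate 2 F141-R85 did. Among other near neighbours, F156-R155 (0.181 kb) had 179 and 94 counts against 22 and 2, higher in adults (1.87 ± 0.55, adjusted p = 0.0011, edgeR). F76-R75 (0.453 kb) had 33 and 33 against 57 and 20, higher in larvae (-1.90 ± 0.56, adjusted p = 0.00113, edgeR). F70-R77 (3.60 kb) had 153 and 139 counts in adults and 25 and 13 in larvae (1.16 ± 0.50, adjusted p = 0.0282, edgeR). Its call was lost with DESeq2 (adjusted p = 0.145), with library totals (0.0612, edgeR), at equal depth (0.169), under the replicate block (0.0704) and without adult 1, adult 2 or larvae 1 (0.147, 0.478 and 0.295).

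Among contacts at least 5 kb apart, F152-R116 led in adults. Its primers, at 55937435 to 55937464 and 55917025 to 55917054, lie 20.4 kb apart. It had 285 and 163 counts in adults and 9 and 2 in larvae, which is 4294 ± 84.9 CPM against 369 ± 89.7 (SD, n = 2 each). The other 171 flank pairs 20 to 30 kb apart had a mean of 26.5 and 22.0 CPM in the adult libraries, so the pair stood far above its class. The change was 3.61 ± 0.57 on the log2 scale (SE, adjusted p = 3.11e-09, edgeR), and it passed without any single library.

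The leading contact of larvae at this range was F141-R85, which joins 55933653 to 55933682 with 55900373 to 55900402 over 33.3 kb. It had 194 and 101 counts in adults and 89 and 43 in larvae, or 2794 ± 241 and 5427 ± 1624 CPM (SD, n = 2 each). All 4 libraries thus held it among their most frequent contacts. It did not pass as different (log2 change -0.72 ± 0.43, adjusted p = 0.118, edgeR), though both larvae values lay above both adult values. It did pass as higher in larvae when libraries were scaled by their totals (adjusted p = 0.0382, edgeR). F152-R55, which reaches 48.4 kb across the flank, had 112 and 62 counts in adults and 63 and 11 in larvae. Its stages overlapped at 1661 ± 71.1 and 2355 ± 952 CPM (SD, n = 2 each, log2 change -0.39 ± 0.48, adjusted p = 0.479, edgeR). F129-R153 (10.6 kb) had 168 and 54 counts against 33 and 3, and the stages overlapped as well (log2 change 0.96, adjusted p = 0.106, edgeR). It passed as higher in adults without a filter (1.44, adjusted p = 0.0306, edgeR), without the 3 abundant pairs (1.44, 0.00794) and without larvae replicate 1 (2.29, 0.0459).

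**Figure D4:**
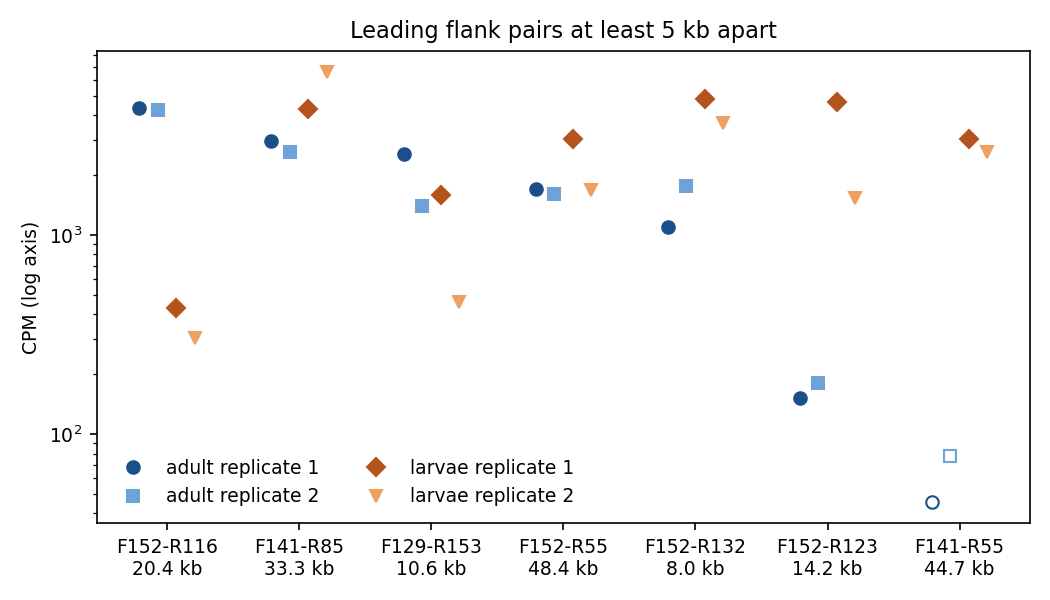
Points give the CPM (log axis) of 7 flank pairs at least 5 kb apart, the 5 with the highest mean CPM in either stage, in each of the 4 libraries. Open symbols stand at the limit of 3 counts for libraries with no read. F152-R116 is higher in both adult libraries, F141-R85, F152-R132, F152-R123 and F141-R55 are higher in both larvae libraries, and F129-R153 and F152-R55 overlap.

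Of the 36 adult-higher pairs, 29 had no read in either larvae library. Taking 3 counts over both larvae libraries as the limit, these were at least 3.26-fold to at least 10.6-fold higher in adults. Such bounds, here and for larvae below, take the mean CPM of the higher stage as it stands, so its own error is not included. They passed the filter on low counts through their adult counts alone, so their number among the calls is a description and not a test. Such pairs were not counted among the adult-higher pairs outside the flank, so the number is not shown to be particular to the flank. The 10 with the largest change were all of this kind. F86-R83 (0.508 kb) had 70 and 48 counts in adults and was at least 10.6-fold higher, and F84-R85 (0.238 kb), in the same stretch from 55899998 to 55900535, had 55 and 33 (at least 7.74-fold). These 2 are mirror images of each other, so they are not separate evidence. Among those in the middle of the flank, F144-R116 (18.5 kb) had 48 and 43 counts, F112-R116 (2.11 kb) had 70 and 21, and F131-R118 (7.92 kb) had 63 and 22.

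The remaining 5 were long contacts of 19.7 to 39.6 kb, each with 1 primer at 55927470 or above. F163-R123 (19.7 kb) had 59 and 33 counts, F131-R75 (31.8 kb) had 38 and 32, and F129-R75 (30.4 kb) had 31 and 33. F86-R155 (39.3 kb) had 57 and 31 counts in adults and F156-R85 (39.6 kb) had 54 and 26. These last 2 are mirror images of each other, with close but unequal counts, so they are not separate evidence. Among pairs with reads in all 4 libraries, the largest adult-higher changes after F152-R116 were those of F76-R83 and its mirror image F84-R77 (3.12 ± 0.93, adjusted p = 0.00142, edgeR). F133-R134 followed, 0.560 kb apart, with 72 and 47 counts against 2 and 3 (2.67 ± 0.90, adjusted p = 0.00516, edgeR).

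Of the 25 larvae-higher pairs, 6 had no read in either adult library and were at least 21.3-fold to at least 97.5-fold higher in larvae. F141-R55 spans 44.7 kb, between 55933653 to 55933682 and 55888989 to 55889018. It had 0 counts in both adult libraries and 63 and 17 in larvae, or 2814 ± 303 CPM (SD, n = 2), at least 97.5-fold higher. These 6 pairs likewise passed the filter through their larvae counts alone, and such pairs were not counted outside the flank. F121-R123 (0.226 kb) had 85 and 9 counts in larvae (at least 94.6-fold), and F70-R75 (2.97 kb) had 78 and 7 (at least 83.5-fold). In these pairs larvae replicate 1 stood far above larvae replicate 2 (4086 and 1376 CPM for F121-R123), and the bounds use the mean of both.

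The others were F159-R116 over 24.3 kb, with 39 and 8 counts, F141-R77 over 36.0 kb, with 28 and 4, and F70-R55 over 5.11 kb, with 16 and 3. Of the 25 larvae-higher pairs, 17 had reads in all 4 libraries, and those with the largest changes among them were F152-R118 (1 and 1 counts against 25 and 4), F152-R123 (10 and 7 against 97 and 10) and F80-R75 (2 and 2 against 14 and 3). Their log2 changes were -5.27 ± 0.89, -4.11 ± 0.64 and -3.68 ± 0.65, with adjusted p of 2.82e-08, 1.52e-09 and 1.31e-07 (edgeR). F56-R52 (7 and 5 against 18 and 3) and F159-R55 (12 and 15 against 50 and 5) came next, at -2.45 ± 0.69 and -2.44 ± 0.73. F80-R77 (2 and 0 against 22 and 3) and F141-R139 (4 and 0 against 33 and 7), 0.364 and 0.219 kb apart, had an adult read in 1 library only. Without larvae replicate 1, 4 flank pairs in all passed as higher in larvae and 8 as higher in adults, and without larvae replicate 2 these numbers were 29 and 66. They were 9 and 14 without adult replicate 1 and 7 and 12 without adult replicate 2 (edgeR).

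The 61 pairs that differed involved 47 of the 61 flank primers, at most 7 pairs with any 1 primer. F152 had these 7 and also the most flank counts, and its partners were chosen for description after values were seen. It took 13.5% of flank counts in adults and 18.0% in larvae, and had 12 tested pairs, 3 of them higher in adults and 4 in larvae. In adults R116, 20.4 kb away, was its main partner, with 31.5% and 31.05% of its flank counts in the adult libraries and 1.85% and 2.04% in the larvae libraries. In larvae the largest mean parts were those of closer partners. R132, 8.02 kb away, took 20.5% and 24.5% in larvae against 7.96% and 12.95% in adults, and R123, 14.2 kb away, took 19.9% and 10.2% against 1.10% and 1.33%. R155, 2.37 kb away on the other side, took 17.7% and 10.2% against 3.98% and 3.05%. R118, the next reverse primer from R116, took 5.13% and 4.08% in larvae against 0.110% and 0.190% in adults, the reverse of R116. R87, 36.8 kb away, took 8.18% and 5.33% in adults and 8.01% and 13.3% in larvae, and in larvae replicate 2 it and R55 stood above R123 and R155. R55 at the far end of the flank had similar parts, with 12.4% and 11.8% in adults and 12.9% and 11.2% in larvae. The count of F152 over all flank partners did not pass (905 and 525 against 487 and 98, log2 change -0.56, adjusted p = 0.0518, edgeR).

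The partners of R116, the reverse primer with the most flank counts, differed too. Its close neighbour F117 gave 35.0% and 36.2% of its flank counts in adults and 80.4% and 60.4% in larvae. F152 gave 36.5% and 34.7% in adults and 3.32% and 3.77% in larvae. F159, 24.3 kb away, had no read with R116 in adults and gave 14.4% and 15.1% of its counts in larvae. R116 had reads with 15 and 14 of its 29 possible flank partners in adults and with 5 and 5 in larvae, in shallower libraries.

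F141, at 55933653 to 55933682, had partly different distant partners in the stages. In adults 80.8% and 71.6% of its flank counts were with R85, 33.3 kb away, and in larvae 39.0% and 52.4% were. R55, at 44.7 kb, had none of its adult counts and 27.6% and 20.7% of its larvae counts, and R77, at 36.0 kb, had none and 12.3% and 4.88%. R139, its neighbour at 0.219 kb, went from 1.67% and 0% to 14.5% and 8.54%. Seen from R55, the far primer at 55888989 to 55889018, F152 was the main partner in adults (43.8% and 36.7% of its flank counts, against 24.7% and 20.8% in larvae). F141 (24.7% and 32.1%) and F159 (19.6% and 9.43%, against 4.69% and 8.88% in adults) took larger parts in larvae.

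Primer totals asked which flank primers gained or lost flank contacts as a whole. Counts were summed for each primer over its partners inside the flank. Of 61 flank primers, 58 passed the filter. Of these, 19 were higher in adults (32.8%, where 31.1% of all totals tested were), 15 were higher in larvae (25.9%, where 25.2% of all were) and 24 did not pass (edgeR quasi-likelihood, Benjamini-Hochberg over 309 totals). The median log2 change was 0.16, against 0.12 over all totals. A read counts towards 1 forward and 1 reverse total, so the totals share reads.

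Both kinds of primer occurred in each of 3 stretches, in unequal numbers, and the difference between stretches was not tested. In the 2 outermost bins, at 55883000 and 55893000, 8 of 18 tested primers were higher in larvae and 2 were higher in adults. In the bins at 55903000, 55913000 and 55923000, 14 of 28 were higher in adults and 5 in larvae, with median log2 changes of 0.99, 1.04 and 0.78. In the bin at the limit 3 of 12 were higher in adults and 2 in larvae. Over all 309 totals tested, 31.1% were higher in adults and 25.2% in larvae.

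The smallest adjusted p among adult-higher primers was that of R83 (55899998 to 55900027), with 228 and 104 counts in adults and 5 and 3 in larvae. It changed by 3.33 ± 0.53 on the log2 scale (SE, adjusted p = 0.000324, edgeR). F124 (55926644 to 55926673) had 176 and 99 counts against 7 and 1 (3.15 ± 0.55), and F112 (55914915 to 55914944) had 258 and 118 against 20 and 4 (1.99 ± 0.39). F131 (389 and 208 against 44 and 17) and F156 (389 and 211 against 56 and 14) followed at 1.27 ± 0.27 and 1.15 ± 0.26. All 5 held a larger part of flank counts in both adult libraries, such as 3.03% against 0.344% for R83 and 2.58% against 0.225% for F124.

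Among larvae-higher primers F141 led, with 240 and 141 counts in adults and 228 and 82 in larvae. That is 3.60% of flank counts in adults and 11.3% in larvae, a log2 change of -1.73 ± 0.23 (SE, adjusted p = 7.04e-05, edgeR). R55 had 256 and 169 counts against 255 and 53 (-1.38 ± 0.23), and F76 (55897526 to 55897555) had 321 and 194 against 224 and 61 (-1.08 ± 0.21). R75 (191 and 143 against 171 and 35) and R71 (12 and 2 against 16 and 3) changed by -1.14 ± 0.26 and -2.38 ± 0.58. The call of R71, which rests on few counts, was lost with DESeq2 (adjusted p = 0.0654).

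**Figure D5:**
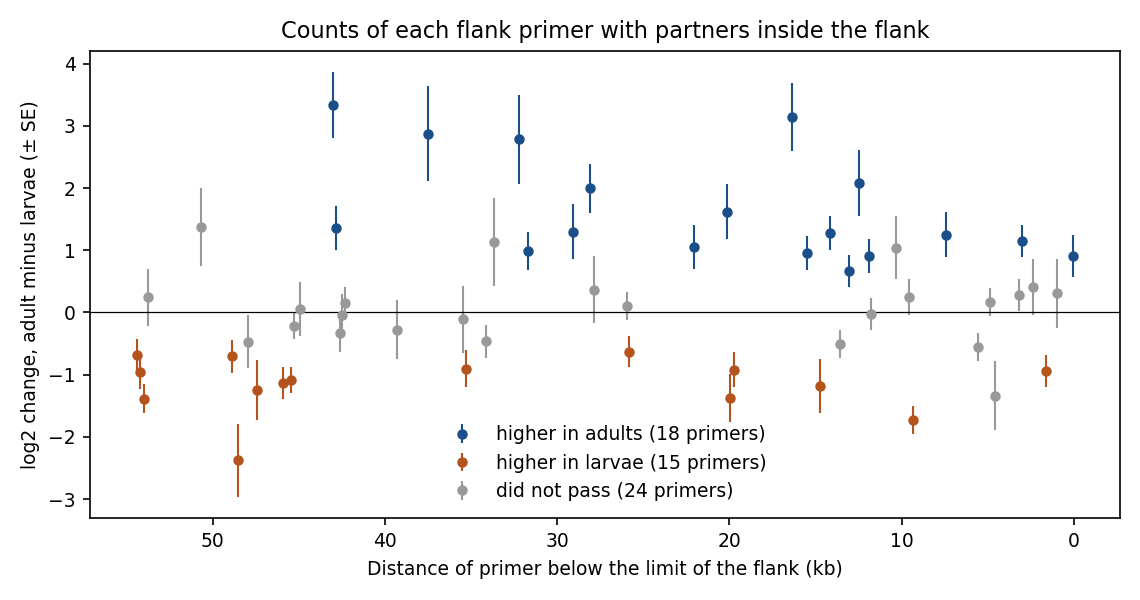
Each point is the log2 change, adult minus larvae, of 1 flank primer's counts with partners inside the flank, with its standard error, against the primer's distance below the limit of the flank (kb). Of the 58 primers tested, 57 are shown, since F94 had no larvae read and its change is not bounded. Both kinds of primer occur along the flank, and the adult-higher ones lie from the limit to 43.0 kb below it.

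Contacts of the same primers with partners outside the flank did not always move alike. Of the 19 primers higher in adults inside the flank, 10 were also higher in adults outside it, 1 was higher in larvae and 8 did not pass. Of the 15 higher in larvae inside, 1 was higher in larvae outside, 5 were higher in adults and 9 did not pass. Among these 9 is R71, whose outside counts did not pass the filter and were not tested. Outside the flank, more flank primers were higher in adults than in larvae, also among those that did not pass inside. These numbers are therefore a description. Over all 309 totals tested, inside and outside together, 31.1% were higher in adults and 25.2% in larvae. These shares cover the whole region and are not the rates of flank primers outside the flank. The 1 primer higher in larvae on both sides was F141 (adjusted p outside = 0.0031, edgeR). F54 at the outer end (55888762 to 55888791) changed by -0.95 ± 0.28 inside and by 3.16 outside, in opposite directions, and F121 by -1.37 ± 0.39 and 3.18. Without adult replicate 1 none of the flank totals passed with edgeR, the test run there (6 in each direction had an unadjusted p under 0.05), and without adult replicate 2, R83, F141 and R55 did. Without larvae replicate 1, 6 were higher in adults and 7 in larvae, and DESeq2 on all libraries called 10 and 7.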

How the data were processed

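The authors deposited read counts for each forward-reverse primer pair as whole numbers, 1 matrix for each of the 4 libraries, with no scaling. The tools named in the submitters' processing notes are bcl2fastq 1.8.4 and Bowtie2 2.2.2, and the build is danRer7. Per the file headers each primer covers 30 bp. The sources used here do not give the restriction enzyme, any filters or the rule for assigning reads. Pairs, primer totals and 10 kb bin pairs were tested over the whole region with edgeR 4.0.16 (quasi-likelihood, TMM, filterByExpr with a minimum count of 10 and minimum total of 15, stage as the term) in R 4.3.3. P-values were adjusted by Benjamini-Hochberg, with a threshold of 0.05. Fold changes are adult over larvae on a log2 scale. Their standard errors (SE) were derived from the test, as the absolute log2 change divided by the square root of its F statistic. CPM is counts per 1000000 of the library total.

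Simulated data with 4-fold changes gave recovery of 82.7% for pairs, 100% for totals and 92.9% for bins. The false calls numbered 3, 2 and 2. The simulation used 1 dispersion for all features of a kind and expected reads in both stages. It therefore does not cover pairs without a read in 1 stage. The flank is defined by position, but it and the lists were chosen for description with earlier results of these data known. Named pairs were those with the largest change (10 in each direction, and 5 among pairs with reads in all 4 libraries) and the highest CPM (5 per stage, over all pairs and from 5 kb on), named primers the 5 smallest adjusted p in each direction, and named bin pairs all that passed. Other primers and pairs, such as the partners of F152, were chosen after their values were seen. Alternatives were DESeq2 1.42.0, other scalings, no filter, thinning to 6539 counts, other limits and bins, a replicate block, each replicate left out and, added after seeing the data, mirror images counted once.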

Additional observations from a re-analysis of the deposited data

How the results depend on the processing

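Pairs higher in adults and larvae numbered 36 and 25, and 145 and 55 without a filter, 1 and 4 of 12 tested at equal depth, and 11 higher in larvae among pairs at least 5 kb apart. Leaving out 1 library gave 8 to 66 and 4 to 29. For primer totals (19 and 15) DESeq2 gave 10 and 7, equal depth gave 8 and 7, and leaving out 1 library gave 0 to 21 and 0 to 16. For bin pairs (4 and 1), 5 kb bins gave 18 and 7 of 51 tested, and leaving out 1 library gave 0 to 6 and 0 to 2. Their median log2 change (0.11) was -0.02 with library totals. Fewer features were tested at equal depth and more without a filter, and the cause of the other changes was not tested.

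The share of counts within the flank, adult minus larvae, was -0.367 percentage points, -2.72 without the 3 abundant pairs, and -1.40 to 0.665 with 1 library left out. The kept share (-6.97 points) was -8.71 with the limit at 55.938 Mb, -3.54 from 5 kb on, and -7.60 to -6.34 with 1 library left out. The slope difference (-0.28) was -0.20 at equal depth, -0.10 with the limit at 55.938 Mb, -0.23 for class means, -0.21 from 2 kb on, and -0.32 to -0.25 with 1 library left out. The adult mean slope itself (-0.09) turned positive at equal depth (0.03) and with the limit at 55.938 Mb (0.06). The log2 change of F152-R55 (-0.39), which passed under no setting run, turned to 0.075 without a filter and 0.048 without the 3 abundant pairs, and ran from -0.734 to 0.157 with 1 library left out.

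The labels do not pair libraries with the same replicate number. Their deviations from the stage mean had a correlation of 0.016 over 679 pairs. With only 1 difference per stage, this value cannot show whether they shared a preparation. With the replicate number as a block, pairs numbered 35 and 20, totals 17 and 13 and bin pairs 4 and 1, and 55 of the 61 pair calls passed again. With mirror images counted once, all 55 pair calls that could be retested passed, as did 5 of 5 bin pairs and 32 of 34 totals. Depth limits most what can be said of larvae replicate 2, with 623 flank counts over 928 pairs.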
